A study of Mus musculus with 8 samples.

Results

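The macrophage and phagocyte genes described here were Cd68, Lyz2, Mpeg1, Cybb, Ctss, Adgre1, Spic, Mertk, Cd14 and Cd36. They were taken by gene symbol, as 10 of the 24346 genes in the files. RNA was sequenced from wild-type mouse bone marrow cells cultured for 1 day alone or together with red blood cells (RBCs). HSCs were sorted as lineage-negative Sca-1+ c-Kit+ CD48- CD150+ cells, and LSK cells, a broader stem and progenitor gate, as lineage-negative Sca-1+ c-Kit+ cells. The 4 groups, each with 2 libraries, were HSCs alone, HSCs with RBCs, LSK cells alone and LSK cells with RBCs. All groups shared the same genotype and, per the study's methods, a medium with thrombopoietin and stem cell factor; the added RBCs had been passed through a leukocyte filter and irradiated. After culture, RBCs were lysed and CD45+ cells were sorted, a gate that all leukocytes pass and that did not select again for the HSC or LSK surface markers. The labels do not say whether the 2 libraries of a group came from separate mice or cultures, so each p-value measures only the spread between these libraries.

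Macrophages engulf aged red cells, digest them in lysosomes and return their iron to the marrow, where it feeds new red cells. Their receptors recognise lipids exposed on dying cells, oxidised lipids and bacterial products, and their lysosomes hold proteases and lysozyme. Immature marrow cells also transcribe some of these genes at a low level, since transcription of myeloid genes begins before lineage commitment.

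Levels are FPKM, fragments per kilobase of transcript scaled to the mapped fragments of the library, which allows comparison between genes. A gene was tested where it reached at least 1 FPKM in at least 2 libraries, which left 12003 genes. Of the 10 genes, 7 were tested, while Cybb, Adgre1 and Mertk stayed below 1 FPKM in every library and are given as values and read counts. Differences are on the log2(FPKM + 1) scale, where the difference of a gene at a few FPKM comes out smaller than its ratio. Calls required an adjusted p under 0.05 in limma (Benjamini-Hochberg over all genes tested) together with a 2-fold difference or more. For a single gene, the smallest p that an exact permutation test of 2 libraries against 2 can give is 0.333, so no such test is reported. Relative sequencing depth, read from the step size of low FPKM values, lay between 0.886 and 1.13 in the 8 libraries.

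The levels spanned a wide range. Lyz2 was the highest of the 10 genes in every library, Cd68 and Ctss followed, and Spic, Cd14, Mpeg1 and Cd36 lay mostly at a few FPKM. Cybb, Adgre1 and Mertk stayed under 1 FPKM. Adgre1 had 1 to 20 reads per library and Mertk 1 to 25, while Cybb had 11 to 53. The cells were thus high in lysosomal transcripts of this set and low in those for the macrophage surface protein F4/80 (Adgre1), the oxidase gp91phox (Cybb) and the engulfment receptor Mertk.

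The labelled identity of the cells was compared with marker genes. Kit, Ly6a, Slamf1, Cd48, Cd34, Procr, Mecom, Hlf and Ptprc were detected in every library, with a summed level of 1070 to 1460 FPKM. The 16 genes listed as resident macrophage markers summed to 3.68 and 4.04 FPKM in HSCs alone, 8.75 and 11.3 in HSCs with RBCs, 16.2 and 26.2 in LSK cells alone and 50.2 and 60.2 in LSK cells with RBCs. Most of this sum was Csf1r, and without it the remaining 15 genes summed to between 1.16 and 5.98 FPKM. Of the 16 genes, 12 stayed under 1 FPKM in every library, and among these C1qa, Vsig4 and Marco were listed at 0 in all 8 libraries. Besides Csf1r, the genes that reached 1 FPKM were C1qb (at most 1.13), Cd163 (at most 1.95) and Aif1 (at most 1.71). In bulk RNA, fewer cells of a type and less RNA per cell cannot be told apart.

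The sequence around the transcription start is shown for the 3 genes called in a comparison, Cd36, Mpeg1 and Cd68, and for the lysozyme pair Lyz2 and Lyz1, whose likeness bears on how reads are assigned. Each window runs from 250 bases before to 50 bases after the RefSeq start, 5′ to 3′ on the gene's strand, from GRCm38.p6, and 8 of the 10 genes had a window. In the first 3 windows, capitals mark GAGGAA, the core bound by the macrophage regulator PU.1, or TGANTCA, the AP-1 motif, on either strand. In the lysozyme pair, capitals mark the bases that differ when the windows are aligned.
Cd36, chr5:17835847-17836146, minus strand: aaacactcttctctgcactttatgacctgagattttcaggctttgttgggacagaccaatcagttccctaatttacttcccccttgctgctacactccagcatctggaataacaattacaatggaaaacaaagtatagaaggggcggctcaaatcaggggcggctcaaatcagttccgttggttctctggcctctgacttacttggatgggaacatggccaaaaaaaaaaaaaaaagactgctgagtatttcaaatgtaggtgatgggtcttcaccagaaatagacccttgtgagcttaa
Mpeg1, chr19:12460520-12460819, plus strand: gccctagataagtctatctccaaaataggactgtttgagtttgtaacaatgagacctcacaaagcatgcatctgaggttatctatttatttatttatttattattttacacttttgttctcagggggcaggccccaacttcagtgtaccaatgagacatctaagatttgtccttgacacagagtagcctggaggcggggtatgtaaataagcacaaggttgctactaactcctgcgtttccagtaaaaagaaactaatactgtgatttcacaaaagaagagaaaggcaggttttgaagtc
Cd68, chr11:69666121-69666420, minus strand: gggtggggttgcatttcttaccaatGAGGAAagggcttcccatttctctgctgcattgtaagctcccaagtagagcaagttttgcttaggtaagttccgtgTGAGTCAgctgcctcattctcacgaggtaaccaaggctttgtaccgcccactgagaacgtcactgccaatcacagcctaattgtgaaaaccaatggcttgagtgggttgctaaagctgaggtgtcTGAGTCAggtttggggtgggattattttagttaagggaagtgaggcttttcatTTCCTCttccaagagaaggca
Lyz2, chr10:117282223-117282522, minus strand: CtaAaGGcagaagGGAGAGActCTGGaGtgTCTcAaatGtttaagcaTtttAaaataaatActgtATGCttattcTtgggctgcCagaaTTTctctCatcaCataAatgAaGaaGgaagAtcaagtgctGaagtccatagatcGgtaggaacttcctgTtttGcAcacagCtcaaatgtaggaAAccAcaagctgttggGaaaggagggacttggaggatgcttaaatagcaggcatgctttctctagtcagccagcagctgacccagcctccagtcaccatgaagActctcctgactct
Lyz1, chr10:117292819-117293118, minus strand: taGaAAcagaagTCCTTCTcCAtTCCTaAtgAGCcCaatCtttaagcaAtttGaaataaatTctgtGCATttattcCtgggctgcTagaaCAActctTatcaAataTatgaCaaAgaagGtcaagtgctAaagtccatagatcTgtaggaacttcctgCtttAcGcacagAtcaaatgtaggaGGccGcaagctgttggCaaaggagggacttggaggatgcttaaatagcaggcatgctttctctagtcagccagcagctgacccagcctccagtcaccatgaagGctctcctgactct

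GAGGAA was present in the windows of Cd68, Cybb and Ctss, 3 of the 8, and in 28.3% of 32851 RefSeq promoter windows of the same length. TGANTCA was present in those of Cd68 and Cybb, 2 of the 8, and in 7.81% of all windows. Neither set of letters occurred in the windows of Cd36, Mpeg1, Lyz2, Spic or Mertk. These matches describe letters in a window and do not show binding. The windows of Cd36, Cybb and Spic lie wholly inside the gene positions given here, and any other starts of these genes were not searched.

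The first comparison asked how these genes differed between LSK cells cultured with RBCs and those cultured alone. Cd36, which encodes a scavenger receptor for oxidised lipids and fatty acids, was the one gene of the set that was called. The other 6 tested genes also had positive differences, and for 9 of the 10 genes both libraries with RBCs lay above both without, as did 19.8% of all genes above 0 in a library and 24.2% of all genes tested. Under quantile normalization the count was 7 of 10. In HSCs no gene of the set was called, and the directions were mixed.

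Cd36 (chromosome 5, 17781690 to 17888801, minus strand, GRCm38) had 0.310 and 0.493 FPKM in LSK cells alone and 2.67 and 3.33 in LSK cells with RBCs. In HSCs it had 1.19 and 1.11 FPKM alone and 2.68 and 2.95 with RBCs. The libraries with RBCs therefore lay above those without in both cell types. Without RBCs, both LSK libraries lay below both HSC libraries. In LSK cells Cd36 rose by 1.51 ± 0.173 (log2, SE, 95% interval 1.12 to 1.902, adjusted p = 0.0024), and the mean FPKM was 7.47 times that of LSK cells alone. In HSCs the difference was 0.83 ± 0.173 (adjusted p = 0.0416), which passed the p threshold but was under 2-fold on this scale, with mean FPKM 2.45 times that of HSCs alone. This pass was lost without any 1 of the 8 libraries (adjusted p = 0.054 to 0.225), with the replicate block (0.0584), without the filter (0.09) and at pseudocounts of 0.1 (0.0896) and 0.5 (0.0534). The RBC effects in HSCs and LSK cells differed by -0.68 for Cd36, which did not pass the test (adjusted p = 0.31). Of all genes tested, 1.01% were called in LSK cells in either direction (0.900% higher and 0.108% lower), and 0.775% in HSCs (0.633% higher and 0.142% lower).

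Mertk, the receptor tyrosine kinase that binds dying cells through bridging proteins, was seen in few reads. It had 6 and 4 reads in HSCs alone, 7 and 25 in HSCs with RBCs, 1 and 7 in LSK cells alone and 13 and 7 in LSK cells with RBCs, and its highest level was 0.502 FPKM. Per unit of depth, the read ratio with RBCs to without was 3.07 in HSCs (95% counting interval 1.47 to 7.01) and 2.89 in LSK cells (1.22 to 7.6). These intervals cover counting error alone, and the count of 25 came from 1 of the 2 HSC libraries with RBCs. Mertk (chromosome 2, 128698956 to 128802894, plus strand) also overlaps the antisense gene Gm14011, and without strand information the reads of both cannot be told apart.

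Cd14, which hands endotoxin to its signalling receptor and also binds dying cells, had 1.12 and 1.31 FPKM in HSCs alone, 1.21 and 2.41 in HSCs with RBCs, 2.52 and 1.84 in LSK cells alone and 2.61 and 2.74 in LSK cells with RBCs. The HSC groups overlapped, and the LSK groups were separated by a narrow margin. The differences were 0.31 in HSCs (adjusted p = 0.641) and 0.22 in LSK cells (adjusted p = 0.666), neither past the test. Cd14 lies on chromosome 18 (36725067 to 36726798, minus strand), and 23 to 52 reads per library stood behind these values.

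**Figure D1:**
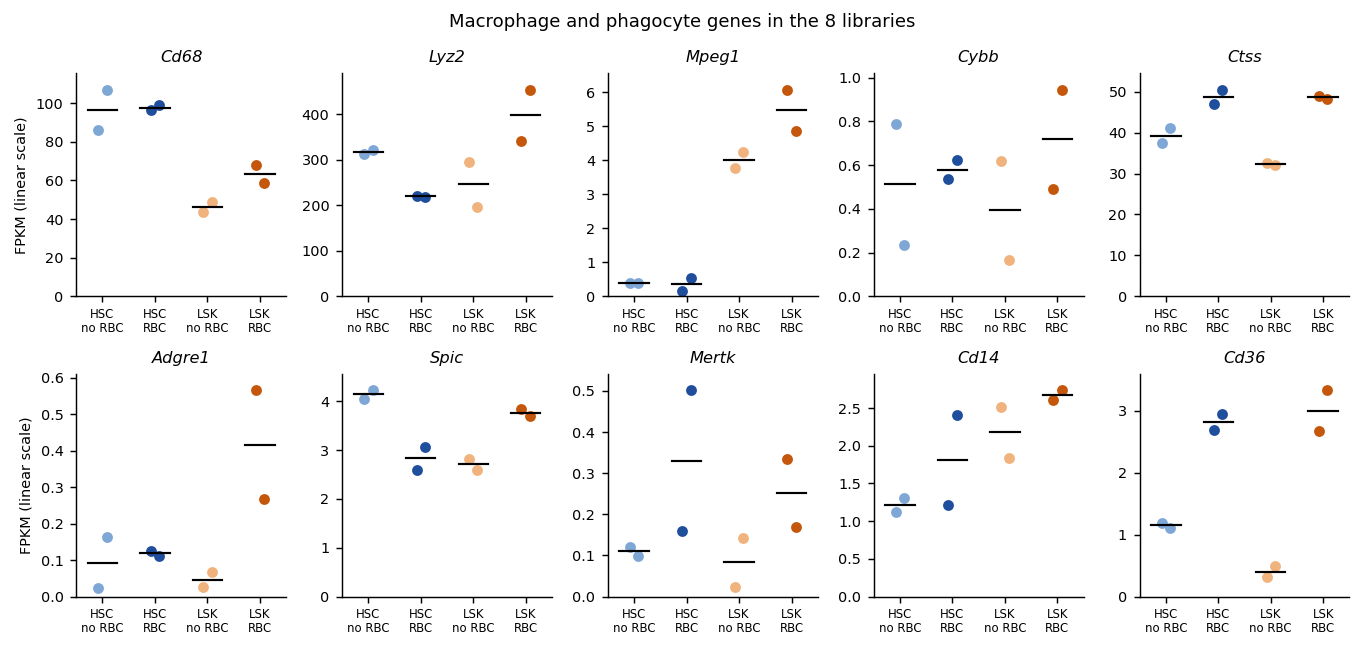
FPKM of each of the 10 genes in the 8 libraries, on linear axes that start at 0. Points are libraries, 2 per group, and horizontal lines are group means. Cd36 was higher with RBCs in both cell types, Mpeg1 was higher in LSK cells than in HSCs, and Cd68 was higher in HSCs than in LSK cells.

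Adgre1, the gene for F4/80, had 1 and 6 reads in HSCs alone, 5 and 5 in HSCs with RBCs, 1 and 3 in LSK cells alone and 20 and 10 in LSK cells with RBCs. Its highest level was 0.566 FPKM, in a library of LSK cells with RBCs, and it stayed at or below 0.163 FPKM outside that group. The summed reads in LSK cells were 30 with RBCs and 4 without, a ratio of 8.68 per unit of depth with a counting interval of 3.06 to 33.9. The ratio in HSCs was 1.37, from 10 and 7 reads (0.471 to 4.25).

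Ctss and Lyz2 represent lysosomal digestion. Ctss, a cysteine protease of antigen-presenting cells (chromosome 3, 95526786 to 95556403, plus strand, overlapping the pseudogene Hmgb1-ps5), had 32.7 and 32.2 FPKM in LSK cells alone and 49.0 and 48.3 with RBCs, and 37.5 and 41.1 FPKM in HSCs alone and 46.9 and 50.5 with RBCs. The groups did not overlap in either cell type, and the levels with RBCs were close in HSCs and LSK cells. The differences were 0.57 ± 0.0795 in LSK cells (adjusted p = 0.0069) and 0.30 ± 0.0795 in HSCs (adjusted p = 0.103). The former passed the p threshold but was under 2-fold, and the pass was lost without either library of LSK cells with RBCs (adjusted p up to 0.0665). With that threshold alone, Ctss and Cd36 passed in LSK cells and Cd36 in HSCs, where 2.32% and 1.57% of all genes passed as higher.

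Lyz2, the lysozyme of myeloid cells, had 312 and 321 FPKM in HSCs alone, 221 and 218 in HSCs with RBCs, 296 and 196 in LSK cells alone and 341 and 454 in LSK cells with RBCs. The libraries with RBCs were thus the lower ones in HSCs and the higher ones in LSK cells. The differences were -0.53 ± 0.178 in HSCs (adjusted p = 0.205) and 0.70 ± 0.178 in LSK cells (adjusted p = 0.0705), so neither passed the test. The difference between these RBC effects was -1.23 ± 0.251 (adjusted p = 0.127), which also did not pass. The difference in LSK cells moved with single libraries: it was 0.41 (adjusted p = 0.244) without replicate 2 of LSK cells alone, 0.50 (adjusted p = 0.346) without replicate 2 of LSK cells with RBCs and 1.0 (adjusted p = 0.0212) without replicate 1 of LSK cells alone. The difference between the effects ranged from -1.53 (adjusted p = 0.0306, without replicate 1 of LSK cells alone) to -0.93 (adjusted p = 0.152, without replicate 2 of LSK cells alone).

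Lyz2 (chromosome 10, 117277331 to 117282321, minus strand) and its paralog Lyz1 (117287797 to 117292868, same strand) have near-identical transcripts, with 1211 of 1262 aligned bases the same (96.0%). Their promoter windows, printed above, shared 249 of 298 aligned bases (83.6%). Lyz1 had 11.3 to 24.1 FPKM and stood at 5.3% to 6.03% of Lyz2 in every library. How the counting divided reads between the copies is not given in the sources used here, so the level of Lyz1 is uncertain.

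Spic, a transcription factor of the macrophages that recycle red cell iron (chromosome 10, 88674772 to 88685015, minus strand), had 4.05 and 4.23 FPKM in HSCs alone, 2.60 and 3.07 in HSCs with RBCs, 2.82 and 2.60 in LSK cells alone and 3.84 and 3.69 in LSK cells with RBCs. As with Lyz2, the libraries with RBCs lay lower in HSCs and higher in LSK cells, with no overlap in either. The differences were -0.43 ± 0.146 (adjusted p = 0.219) and 0.36 (adjusted p = 0.228), and that between them was -0.79 (adjusted p = 0.195). None passed the test, and 36 to 63 reads per library stood behind each value.

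Cd68, a glycoprotein of late endosomes and lysosomes (chromosome 11, 69664213 to 69666153, minus strand), had 43.8 and 48.6 FPKM in LSK cells alone and 68.1 and 58.5 with RBCs. In HSCs it had 85.9 and 107 FPKM alone and 96.3 and 98.9 with RBCs, so that the HSC groups overlapped. The difference was 0.44 ± 0.114 in LSK cells (adjusted p = 0.0744) and 0.03 in HSCs (adjusted p = 0.956).

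Mpeg1, which encodes the pore-forming protein perforin-2 of phagocyte vacuoles (chromosome 19, 12460779 to 12465283, plus strand), had 3.78 and 4.25 FPKM in LSK cells alone and 6.08 and 4.87 with RBCs. In HSCs it had 0.393 and 0.400 FPKM alone and 0.166 and 0.537 with RBCs, which overlapped. The differences were 0.36 in LSK cells (adjusted p = 0.352) and -0.06 in HSCs, neither past the test.

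Cybb, the catalytic subunit of the phagocyte oxidase (chromosome X, 9435252 to 9487771, minus strand), had 0.789 and 0.236 FPKM in HSCs alone, 0.536 and 0.622 in HSCs with RBCs, 0.620 and 0.165 in LSK cells alone and 0.492 and 0.945 in LSK cells with RBCs. The groups overlapped in both cell types. Replicates of 1 group differed widely, with 53 and 13 reads in HSCs alone.

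**Figure D2:**
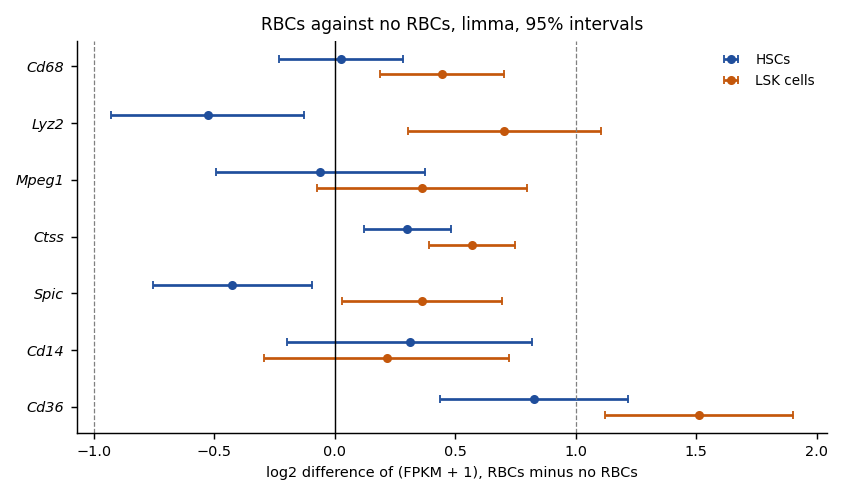
Log2 difference of FPKM + 1 between libraries with and without RBCs for the 7 tested genes, in HSCs and LSK cells. Points are limma estimates, bars are 95% intervals and dashed lines mark 2-fold. In LSK cells all 7 points lie above 0, with Cd36 at 1.51, while in HSCs Lyz2, Spic and, at -0.06, Mpeg1 lie below 0.

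Across the set in LSK cells, 9 of 10 genes were higher in both libraries with RBCs, Cybb overlapped and none was lower. All 7 tested genes were among the 9. In HSCs, 3 genes were higher without overlap (Ctss, Mertk and Cd36), 2 were lower (Lyz2 and Spic) and 5 overlapped. The shares among genes above 0 in a library were 17.2% higher and 17.0% lower. The median difference over the 7 tested genes was 0.444 in LSK cells and 0.025 in HSCs, against -0.010 and -0.006 for all genes tested. The difference between the RBC effects was called for none of the 7 by limma, where 5 had an unadjusted p under 0.05, all 5 lower in HSCs, against 12.5% of all genes (6.53% lower). The lowest adjusted p was 0.127, and 0.108% of all genes were called. In HSCs, where none was called, 4 of the 7 had an unadjusted p under 0.05, with 2 higher and 2 lower, against 13.7% of all genes (6.76% higher and 6.91% lower).

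Markers of other blood cells moved with the same comparisons. The 11 neutrophil markers found summed to 39.3 and 32.4 FPKM in HSCs alone, 299 and 88.5 in HSCs with RBCs, 188 and 285 in LSK cells alone and 654 and 447 in LSK cells with RBCs, and in LSK cells Retnlg, Mmp8 and Mmp9 were called as higher. The 8 monocyte markers gave sums dominated by Ifitm3, and without it the other 7 summed to 9.79 and 12.9 FPKM in HSCs alone, 13.4 and 13.4 in HSCs with RBCs, 19.4 and 18.9 in LSK cells alone and 53.5 and 60.0 in LSK cells with RBCs. The chemokine receptor gene Ccr2 was the called gene of this list, with 7.61 and 4.57 FPKM in LSK cells alone and 34.4 and 35.0 with RBCs, a rise of 2.37 (adjusted p = 0.00058). The 7 dendritic cell markers lay between 101 and 116 FPKM in LSK libraries and between 18.5 and 26.9 in HSC libraries, and the T cell markers did not exceed 1.06 FPKM in sum. The summed levels lay at 34.7 to 51.6 FPKM for B cells, 72.0 to 151 for mast cells or basophils, 100 to 240 for platelets or megakaryocytes (Gp6 at 0 throughout) and 111 to 338 for RBCs. Other marker genes called with RBCs were S100a8, S100a9, Hba-a1, Hbb-b1 and Alas2 as higher and Fcer1a and Cd48 as lower in HSCs, and Hba-a1 as higher and Pf4 as lower in LSK cells. Hba-a1 had 0.0826 and 1.4 FPKM in HSCs alone and 116 and 88.7 with RBCs. In LSK cells it had 0.864 and 1.53 FPKM alone and 32.9 and 43.1 with RBCs. The RBC sum hides this rise, since without RBCs it was nearly all Hbb-b2 (mean 307 FPKM in HSCs and 141 in LSK cells). Hbb-b2 had lower means with RBCs (139 and 90.9) and was not called. Hbb-b1 had a mean of 1.94 FPKM in HSCs alone and 48.0 with RBCs. In LSK cells its mean was 1.51 alone and 0.0291 with RBCs, which was not called. Hbb-bs had 0.00753 and 19.1 FPKM in HSCs with RBCs and 18.9 and 19.4 in LSK cells with RBCs. How the counting divided reads between these globin genes is not given in the sources used here. The part of these cell types in the differences of the 10 genes was not tested.

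The second comparison set LSK cells against HSCs under the same culture. Mpeg1 was higher in LSK cells under both conditions, and Cd68 was higher in HSCs, called without RBCs. Without RBCs, 2.66% of all genes tested were called (1.62% higher and 1.03% lower in LSK cells), and with RBCs 3.61% (2.61% higher).

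For Mpeg1, every LSK library was above every HSC library, and the mean FPKM in LSK cells was 10.1 times that in HSCs without RBCs and 15.6 times that with RBCs. The differences were 1.84 ± 0.193 (adjusted p = 0.00042) and 2.27 ± 0.193 (adjusted p = 9.5e-05). The HSC values rested on 9 to 33 reads per library against 205 to 292 in LSK cells, and the counting intervals of the read ratio were 7.46 to 14.2 and 11 to 21.1.

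For Cd68, every HSC library was above every LSK library. The mean FPKM in LSK cells was 0.479 of that in HSCs without RBCs and 0.649 with RBCs. Cd68 was lower in LSK cells by a difference of -1.04 ± 0.114 without RBCs (adjusted p = 0.00054), which was called, and of -0.62 with RBCs (adjusted p = 0.0049), which was under 2-fold. The first value was close to the threshold of 2-fold, since it was -0.88 (adjusted p = 0.00349) without replicate 2 of HSCs alone and -0.96 (adjusted p = 0.00625) without replicate 1 of LSK cells alone.

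No other gene was called between cell types. Cd36 was lower in LSK cells without RBCs by a difference of -0.62 (adjusted p = 0.0439). This was under 2-fold on this scale, with mean FPKM 0.35 of that in HSCs. The pass was lost without any 1 of the 8 libraries (difference -0.71 to -0.52). It was also lost without the filter (adjusted p = 0.0675), with the replicate block (0.0565) and with the 2 groups alone (0.0944). It held at pseudocounts of 0.1 (adjusted p = 0.021) and 0.5 (0.0308), under quantile normalization (0.0346), median scaling (0.0396) and without the trend (0.0195). With RBCs Cd36 stood at 0.06 (adjusted p = 0.818). Lyz2 differed by -0.39 without RBCs (adjusted p = 0.183), with -0.69 (adjusted p = 0.0271) without replicate 1 of LSK cells alone and -0.10 (adjusted p = 0.771) without replicate 2, and by 0.84 with RBCs (adjusted p = 0.0091, under 2-fold). Without replicate 1 of LSK cells with RBCs, the latter was 1.05 (adjusted p = 0.013) and past both thresholds, and without replicate 2 it was 0.63 (adjusted p = 0.077). Ctss differed by -0.27 (adjusted p = 0.0541), Spic by -0.47 (adjusted p = 0.0635) and Cd14 by 0.51 (adjusted p = 0.169) without RBCs, none past the test. At the p threshold alone, 14.2% of all genes passed without RBCs and 24.4% with RBCs. Counting separation alone, 2 of the 10 genes were higher and 5 lower in LSK cells without RBCs, and 5 were higher and 1 lower with RBCs. Among genes above 0 in a library, 21.1% and 21.6% were separated so without RBCs and 25.7% and 26.0% with RBCs.

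**Figure D3:**
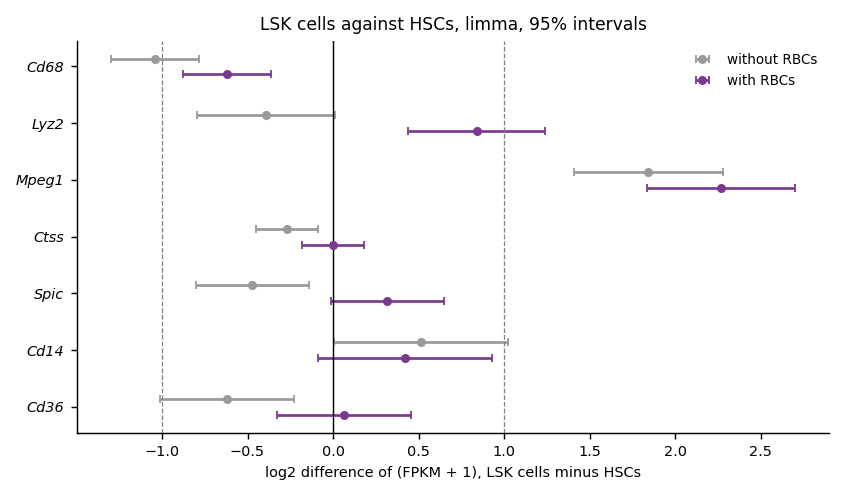
Log2 difference of FPKM + 1 between LSK cells and HSCs for the 7 tested genes, without and with RBCs. Points are limma estimates, bars are 95% intervals and dashed lines mark 2-fold. Mpeg1 lies at 1.84 and 2.27, and Cd68 at -1.04 and -0.62.

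The genes that work with these 10 were examined through 6 lists. Genes named in these lists that were not called were picked after their values were seen. With RBCs, 18.6% of all genes had an unadjusted p under 0.05 in LSK cells (9.52% higher and 9.04% lower), beside the shares for HSCs given above. Of the passes on adjusted p alone given for these lists, that of Slc48a1 in LSK cells held without each library in turn, and the others were lost without at least 1, with a highest adjusted p between 0.0572 (Slc48a1 in HSCs) and 0.282 (Ncf1 in HSCs). The oxidase of phagocytes joins Cybb to a membrane partner and to cytosolic subunits. Of these partners, 6 were found and all were tested. They were abundant where Cybb was not, with Cyba at 129 to 169 FPKM, Rac1 at 190 to 228 and Rac2 at 158 to 185, against 0.165 to 0.945 for Cybb. With RBCs none of the 6 was called by limma, and 2 had an unadjusted p under 0.05 in each cell type. Ncf1, the organiser subunit p47phox, had 8.91 and 11.1 FPKM in HSCs alone and 19.3 and 14.1 with RBCs, then 24.4 and 22.4 in LSK cells alone and 46.3 and 45.7 with RBCs. Its differences with RBCs were 0.68 (adjusted p = 0.0491) and 0.95 (adjusted p = 0.0108), both under 2-fold. Between cell types Ncf1 was higher in LSK cells by 1.16 without RBCs (adjusted p = 0.0012) and 1.42 with RBCs (adjusted p = 0.00028), and Ncf4, the subunit p40phox, by 1.39 (adjusted p = 0.00018) and 1.17 (adjusted p = 0.00034).

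**Figure D4:**
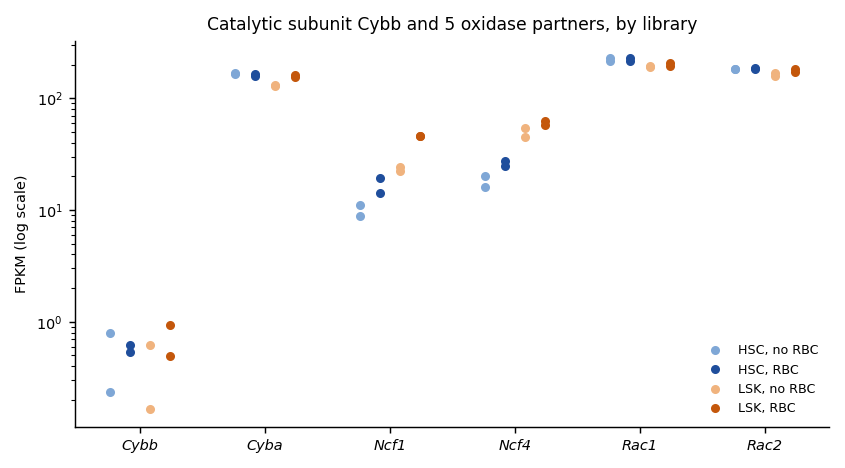
FPKM of Cybb and 5 of its oxidase partners in the 8 libraries, on a log axis. Each point is a library. Cybb lies under 1 FPKM in every library, these partners at 8.91 FPKM or more, and Ncf1 and Ncf4 are higher in LSK cells.

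Uptake receptors and their bridging proteins were 23 genes, of which 12 were tested. None was called with RBCs by limma, while 5 in HSCs (2 higher) and 7 in LSK cells (5 higher) had an unadjusted p under 0.05. The integrin subunit gene Itgb3 had 14.3 and 11.5 FPKM in HSCs alone and 22.2 and 26.8 with RBCs, a difference of 0.88 (adjusted p = 0.013, under 2-fold). Mfge8, which bridges such integrins to dying cells, differed by -0.39 in HSCs (adjusted p = 0.0213), and Pros1, a ligand of Mertk, by 0.69 in LSK cells (adjusted p = 0.0421), both under 2-fold. Axl, a relative of Mertk, had 2.14 and 1.52 FPKM in HSCs alone, 4.33 and 3.59 in HSCs with RBCs, 0.337 and 0.939 in LSK cells alone and 1.39 and 1.29 in LSK cells with RBCs. Neither RBC difference of Axl passed the test (0.81, adjusted p = 0.108, and 0.54, adjusted p = 0.229), while with RBCs it was lower in LSK cells than in HSCs (-1.08, adjusted p = 0.0074). This call was lost without replicate 1 of HSCs with RBCs (-0.97, adjusted p = 0.0575). The scavenger receptor gene Scarf1 was also lower in LSK cells with RBCs (-1.23, adjusted p = 2.6e-05). Without RBCs both genes were lower in LSK cells too (Axl -0.80 and Scarf1 -0.98), each under 2-fold and not called. The antibody receptors Fcgr2b and Fcgr3 were higher in LSK cells, Fcgr2b by 2.04 (adjusted p = 0.00021) and 2.54 (adjusted p = 5.4e-05) and Fcgr3 by 2.39 (adjusted p = 0.0043) and 3.19 (adjusted p = 0.00066) without and with RBCs. Msr1 and Marco, scavenger receptors of macrophages, were listed at 0 in all 8 libraries.

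The 11 genes of heme and iron handling include those that free and store the iron of engulfed red cells, and 9 were tested. None was called with RBCs by limma, and differences were negative for 7 of 9 in HSCs and 8 of 9 in LSK cells, with medians of -0.29 and -0.40. At an unadjusted p under 0.05, 5 were lower and 1 higher in HSCs, and 5 were lower in LSK cells, against 6.91% and 9.04% of all genes lower at that threshold. The higher gene was Slc40a1, with 5.18 and 7.26 FPKM in HSCs alone and 10.2 and 10.7 with RBCs (0.68, adjusted p = 0.0715). Slc48a1, which moves heme out of the lysosome, had 196 and 194 FPKM in LSK cells alone and 109 and 106 with RBCs, and its differences were -0.85 in LSK cells (adjusted p = 0.00038) and -0.50 in HSCs (adjusted p = 0.0049). Hmox1, the enzyme that opens the heme ring, had 28.6 and 30.3 FPKM in LSK cells alone and 13.6 and 16.8 with RBCs (-0.92, adjusted p = 0.0218), and the ferritin light chain gene Ftl1 gave -0.52 in LSK cells (adjusted p = 0.0091) and -0.43 in HSCs (adjusted p = 0.0214). All of these were under 2-fold, and ferritin transcripts have processed pseudogenes that can share their reads. Hmox1 was also higher in LSK cells than in HSCs, by 1.15 without RBCs (adjusted p = 0.0025) and 0.86 with RBCs (adjusted p = 0.0065, under 2-fold).

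Macrophage regulators were 12 genes, of which 8 were tested. Csf1r, the receptor for the macrophage growth factor M-CSF, was the gene called with RBCs. It had 2.53 and 2.81 FPKM in HSCs alone, 7.07 and 9.37 in HSCs with RBCs, 14.1 and 22.8 in LSK cells alone and 47.2 and 54.3 in LSK cells with RBCs. The differences were 1.32 ± 0.206 in HSCs (adjusted p = 0.0121) and 1.44 ± 0.206 in LSK cells (adjusted p = 0.0075). Without the filter on low values the adjusted p was 0.0848 in HSCs and 0.0555 in LSK cells, so that neither call held. Leaving out replicate 1 or 2 of HSCs alone or replicate 2 of HSCs with RBCs gave 0.0605, 0.0667 and 0.0794 in HSCs, and leaving out replicate 1 or 2 of LSK cells with RBCs gave 0.051 and 0.0777 in LSK cells. Between cell types, Csf1r (2.37 and 2.50), the myeloid factor gene Cebpa (2.21 and 2.30) and the monocyte factor gene Irf8 (2.67 and 3.0) were higher in LSK cells without and with RBCs, with adjusted p of at most 0.00024.

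**Figure D5:**
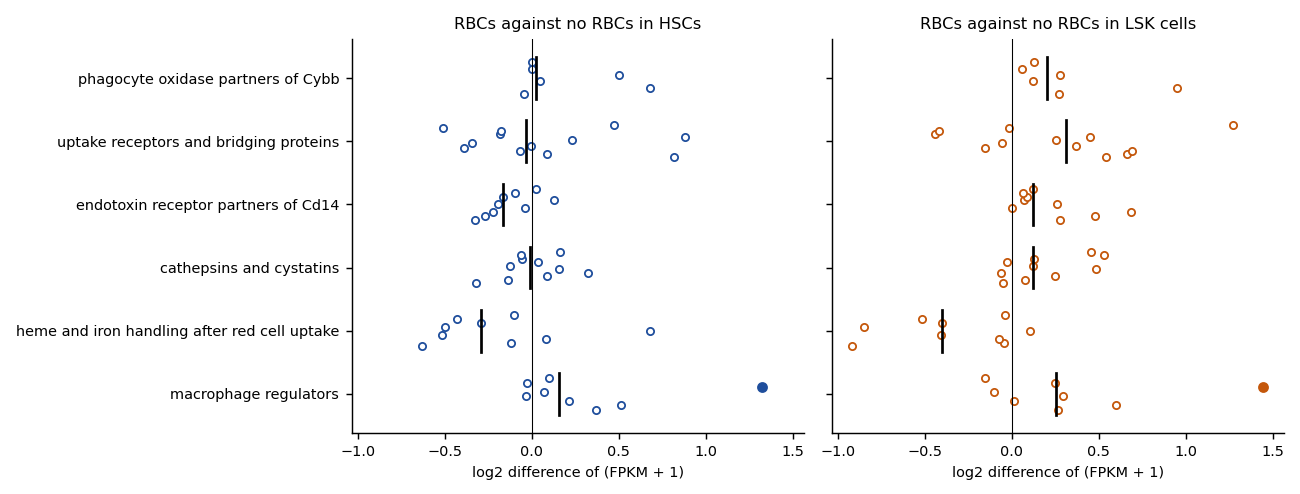
Log2 difference of FPKM + 1 with RBCs against without for the tested genes of 6 lists, in HSCs and LSK cells. Each circle is a gene, black lines are list medians and filled circles are called genes. Csf1r, the filled circle, lies at 1.32 in HSCs and 1.44 in LSK cells, and the heme and iron list has medians of -0.29 and -0.40.

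Neither the endotoxin receptor partners of Cd14 nor the cathepsins and cystatins around Ctss held a gene called by limma in any of these comparisons. All 9 endotoxin partners were tested, with positive differences for 9 of 9 in LSK cells (median 0.121, 2 with an unadjusted p under 0.05) and for 2 of 9 in HSCs (median -0.167, none with an unadjusted p under 0.05). Of the 10 cathepsin and cystatin genes, 3 in LSK cells and 2 in HSCs had an unadjusted p under 0.05 with RBCs. Cstb, an inhibitor of cathepsins, had 268 and 312 FPKM in LSK cells alone and 412 and 422 with RBCs (0.53, adjusted p = 0.0089, under 2-fold). Between cell types, 4 endotoxin partners had an unadjusted p under 0.05 without RBCs and 4 with RBCs, as did 6 and 5 of the cathepsin and cystatin genes, against 28.7% and 37.6% of all genes.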

How the data were processed

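Per the study's methods and the labels, full-length cDNA of sorted CD45+ cells was made with a SMART-Seq HT kit and sequenced. The authors deposited 1 table of FPKM values per library, listed by gene symbol. The submitters' processing notes name TopHat2 2.1.1, Bowtie2 2.2.8, SAMtools 0.1.18, Cuffdiff 2.2.1 and mm10, and the annotation is not given in the sources used here. FPKM values hold no read counts, but low values are multiples of what 1 read is worth, and 3791 of 4301 low genes (88.1%) gave such steps within a tolerance of 0.03. Read numbers and relative depth come from these steps.

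FPKM + 1 was set on a log2 scale and fitted with limma 3.58.1 (trend, R 4.3.3) in 1 model of the 4 groups, with 4 residual degrees of freedom, on the 12003 genes at 1 FPKM or more in at least 2 libraries. The script was tested on simulated data. Alternatives were pseudocounts of 0.1 and 0.5, no filter, quantile normalization, median scaling, the 2 groups compared alone, a replicate block, no trend, no fold threshold and leaving out each library.

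The 10 genes, the 6 pathway lists and the marker lists were chosen with earlier results of these data known. Genes named are the 10, Lyz1, pathway genes called in a comparison, marker genes called with RBCs or listed at 0, and the 2 genes most like each tested member. Other pathway genes, the markers of the labelled cells, C1qb, Aif1, Ifitm3, Hbb-bs and Hbb-b2 were named after their values were seen. Cybc1, Ly6g, Ighm, Trac and Hbb-bt were not matched by symbol and were not analysed here, and 1 oxidase partner is not reported here by name. Gene positions are from GENCODE M21 (GRCm38) and sequences from RefSeq (GRCm38.p6).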

Additional observations from a re-analysis of the deposited data

How the results depend on the processing

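Over 35 differences of the tested genes, 567 values under the alternatives kept their direction and their side of the thresholds, 9 passed where they had not, 2 no longer passed and 10 changed sign. Several alternatives cannot move the estimate: no filter, no trend, the replicate block, the 2 groups alone and no fold threshold. Leaving out a library of a group not compared cannot move it either. In these the direction was fixed in advance, so the tally overstates how stable the directions were. Calling on adjusted p alone raised the members called with RBCs to 1 higher in HSCs and 2 higher in LSK cells, and those called between cell types to 2 lower without RBCs and, with RBCs, to 2 higher and 1 lower. The pathway genes so called were 4 higher and 5 lower in HSCs (1 and 0 with the 2-fold rule), 5 higher and 5 lower in LSK cells (1 and 0), 15 higher and 10 lower between cell types without RBCs (8 and 0) and 18 higher and 7 lower with RBCs (7 and 2). Without the filter, 0 pathway genes were called with RBCs in HSCs and 0 in LSK cells, and with only 2 groups fitted 2 were higher in LSK cells. A pseudocount of 0.1 gave 2 members lower in LSK cells without RBCs, the added one being Cd36 (-1.34), and 3 pathway genes lower there, with 1 at a pseudocount of 0.5, under quantile normalization and under median scaling. Of all genes tested with RBCs, 76 were called higher and 17 lower in HSCs and 108 and 13 in LSK cells, which became 46, 4, 63 and 7 without the filter. Those higher in LSK cells became 63 without replicate 1 of LSK cells alone and 53 or 62 without replicate 1 or 2 of LSK cells with RBCs. A pseudocount of 0.1 gave 27 lower in HSCs and, between cell types, 218 and 223 lower (124 and 120) without and with RBCs, a pseudocount of 0.5 gave 189 lower without RBCs, and 8 were lower in LSK cells without the trend.

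Leaving out 1 library gave 1 to 2 members called higher with RBCs in LSK cells, 0 to 1 lower for the difference of the RBC effects, 0 to 1 lower between cell types without RBCs and 1 to 2 higher with RBCs. The members separated in HSCs were 3 to 6 higher and 2 to 4 lower, against 9 to 10 higher in LSK cells. Leaving out a library can only keep or raise such a count, so these ranges could not show a loss. The share of all genes separated at this setting was not computed. Pathway genes numbered 0 to 2 higher with RBCs in HSCs and 0 to 1 in LSK cells, and between cell types 0 to 3 lower without RBCs and 1 to 2 lower with RBCs. Differences near 0 changed sign: Cd68 (-0.13 to 0.18), Mpeg1 (-0.26 to 0.14) and Cd14 (-0.0034 to 0.63) in HSCs, the Cd14 difference of effects (-0.22 to 0.41), and with RBCs between cell types Ctss (-0.0538 to 0.0523) and Cd36 (-0.0561 to 0.19), the last pair also under quantile normalization (0.0057 and -0.0079). The causes were not tested. Cd36 in LSK cells kept its call in all 8 (1.39 to 1.63), and so did Mpeg1 between cell types (1.77 to 1.91 and 2.07 to 2.47).

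Same-numbered libraries showed no strong shared deviation over all genes tested (correlations of -0.067 to 0.095). This cannot tell whether they shared a mouse or a culture, and the labels do not say. With the replicate block no member call changed (Cd36 lost its pass on adjusted p alone in HSCs, 0.0584, and between cell types without RBCs, 0.0565). The block cannot move an estimate where each group holds both replicates, so Cd36 in LSK cells stayed at 1.51.

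Adgre1 and Mertk rested on at most 20 and 25 reads per library, which limits what can be said of them.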

Other observations

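For each tested gene, the genes with the most similar pattern over the 8 libraries were found by Pearson's r of log2(FPKM + 1). The 8 points are 2 libraries of each of 4 groups, so r mostly reflects the group means, and the values are descriptions. Lyz2 was closest to its paralog Lyz1 (0.988), with which it may share reads, followed by Dcp1b (0.973). Cd68 was closest to Sgce (0.982) and Mageh1 (0.981), and Mpeg1 to Usp11 and Cnnm2 (both 0.997). Ctss was closest to Trpc6 (0.973) and to Cd36 (0.972), the one case where a gene of the set was among the closest of another. Cd36 was closest to Acp5 (0.98), a phosphatase of osteoclasts and macrophages, and to Perp (0.979). Spic was closest to Rbm11 (0.948) and Cxx1c (0.938), and Cd14 to Egfl8 (0.98) and Mbtd1 (0.966).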
